A study of Mus musculus with 24 samples.

Results

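Cytokines are secreted proteins through which cells of a tissue signal to each other, and each acts through receptor chains on the receiving cell. The set described here holds the genes of the table that carry the cytokine and cytokine receptor interaction pathway in its pathway column. Chemokine ligands and genes with a symbol starting with Tgfb, which covers TGF-beta ligands and receptors, were left out by symbol. So were 13 single genes: Il18 of the IL-1 family and genes of the CSF1, gp130, gamma chain and chemokine receptor systems. This left 82 of the 114 pathway genes, out of 15524 genes in all. The selection used names and no measured value. It removes chemokines by their symbol prefix, so the chemokine Pf4 stayed in. Tnf, Il1a, Il1b, Il6, Ifng and Il10 are not among the 82 genes and are not analysed here.

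RNA from the lumbar spinal cord of 24 mice was measured by bulk MARS-seq, a method that reads the 3′ end of transcripts with a poly(A) tail and marks single molecules with a tag. The 10 non-transgenic (NT) mice were littermates of 10 untreated SOD1-G37R mice, which carry a mutant human SOD1 transgene (loxSOD1-G37R, bred with C57BL6) and develop a motor neuron disease late in life. The untreated mice were symptomatic, at about a year of age, and were perfused before the cord was taken. There were 3 females and 3 males per genotype in experiment 1 and 4 males per genotype in experiment 2. Another 4 SOD1-G37R males had received AAV-PHP.eB-MIF, a brain-penetrating adeno-associated virus vector carrying macrophage migration inhibitory factor (MIF), by a single tail-vein injection after disease onset. Their label codes place them with the males of experiment 2, and they were compared with these. No source used here gives their experiment, their age or the promoter of the vector, and no group received an empty vector.

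Cytokine receptors work as assemblies. Receptors of the tumour necrosis factor (TNF) family are trimers that recruit adaptor proteins, whereas receptors for interferons, interleukins and colony-stimulating factors pair a chain that binds the ligand with a chain that carries the signal, often shared between ligands. In the spinal cord, microglia, the resident macrophages, carry many receptors for colony-stimulating factors, interferons and TNF, and astrocytes and neurons carry others. Bone morphogenetic proteins (BMPs) and activins form a separate branch that signals through serine/threonine kinase receptors.

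The deposited values are normalised, on a log scale whose base is not stated and is taken here as 2, and with the difference between the experiments removed by the authors. Over all genes they ran from -0.79 to 14.76, with 2.22% of them below 0, and the median of a mouse lay between 4.08 and 4.23. Any 2 mice correlated at 0.978 or more across genes. The table gives no read totals. The paper gives an average number of reads per sample after trimming but none per mouse. The depth behind a single value is therefore unknown. A difference in level between genes is not read as a difference in amount, since no source used here says how values of different genes compare. Mif did not separate the treated mice. It had a level of 9.77 ± 0.19 (SD, n = 4) in the mice given the MIF vector and of 9.69 ± 0.11 in untreated SOD1-G37R males of experiment 2. Whether the assay reads the transcript of the vector is not given in the sources used here. Human SOD1 is not among the genes analysed here, and mouse Sod1 was not called.

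Cell type markers moved with the genotype, and they are given here because the cord was measured as a whole. Of 8 microglial markers 6 were higher in SOD1-G37R mice, and the mean of the list ran from 5.40 to 5.72 in NT, from 6.25 to 6.96 in SOD1-G37R and from 6.34 to 6.72 in MIF-treated mice. P2ry12 and Tmem119, markers of resting microglia, were not called. Among 5 astrocyte markers 4 were higher, with list means of 7.29 to 7.92 in NT and 8.19 to 8.72 in SOD1-G37R mice. Neuron markers were lower in 4 of 5 cases. Of 7 T cell markers 3 were in the table, with list means of 1.45 to 1.78 in NT and 1.64 to 2.01 in SOD1-G37R mice and none called. No marker of the B cell and neutrophil lists was measured. Haemoglobin genes varied between mice of each group, with list means of 4.29 to 7.20 in NT, 4.16 to 9.42 in SOD1-G37R and 4.82 to 9.82 in MIF-treated mice. More cells of a type and more RNA per cell cannot be told apart in such samples, and the part of cell numbers in the differences below was not tested.

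To determine which cytokine genes differed with disease, untreated SOD1-G37R mice were compared with NT mice, with the experiment in the model. Each difference below is SOD1-G37R minus NT on the log2 scale of the table, and calls were made with limma at an adjusted p (Benjamini-Hochberg, over all 15524 genes) below 0.05. Receptors made up most of the largest changes: the GM-CSF receptor chain Csf2ra (1.68), the TNF receptor Tnfrsf1a (1.37), the TSLP receptor Crlf2 (1.26) and the TWEAK receptor Tnfrsf12a (1.09) rose by more than 1. Of the 82 members 37 rose and 3 fell, so that 48.8% were called, against 26.5% of all genes. Over all genes 14.8% rose and 11.8% fell. The median difference of the members was 0.15, against 0.00058 over all genes, and 61 of the 82 differences were above 0. At an unadjusted p under 0.05 there were 47 members (57.3%), against 36.1% of all genes. For comparison, 18 of the 32 pathway genes outside the set rose and 1 fell, with a median of 0.34.

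Most of these genes lie low in the table, which bears on the size of their differences. The median level of the members was 2.39, against 4.18 over all genes, and 31 of the 82 had a mean below 2. Differences are small at such levels: 99% of all genes below a level of 1 differed by less than 0.22, whereas the same limit was 1.42 for genes from 6 to 8. Among members below a level of 2, 8 of 31 were called (25.8%, against 6.61% of all genes at that level). From 2 to 4, 19 of 31 were called (61.3% against 20.5%). At 4 to 6 the count was 6 of 10 (60.0% against 30.7%), and at 6 and above it was 7 of 10 (70.0% against 47.6%).

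**Figure D1:**
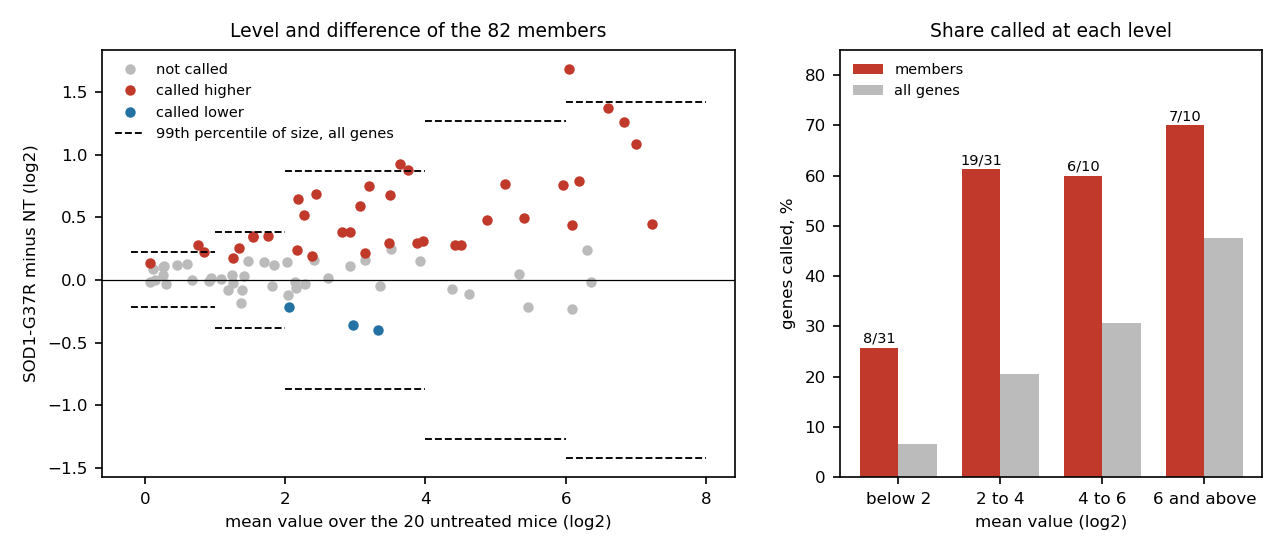
Left, mean log2 value over the 20 untreated mice (x axis) and SOD1-G37R minus NT difference (y axis) of each of the 82 members, coloured by call, with dashed lines at the 99th percentile of the size of the difference over all genes at that level. Right, percent of members (red) and of all genes (grey) called in 4 ranges of level, with the members' counts above the bars. The members' bar is above that of all genes in each range, from 25.8% against 6.61% below a level of 2.

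In 11 members every SOD1-G37R mouse lay above every NT mouse, which held for 3.23% of all genes, and in 0 members did all lie below (0.773% of all genes). Within experiment 1 the groups parted in this way for 19 members (7.07% of all genes) and within experiment 2 for 22 (6.56% of all genes). Over both experiments the 11 were Crlf2, Csf2ra, Csf2rb, Gdf15, Ifnar2, Ifngr1, Il1r1, Il1rl2, Il3ra, Pf4 and Tnfrsf1a. One SOD1-G37R library, male 4 of experiment 2, tended to be low. It held the lowest of the 10 SOD1-G37R values for 15 of the 37 members that rose and the highest for 0 of them. Without this mouse the count of members that rose was again 37. Of the 40 calls, 32 held when each of the 20 mice was left out in turn. The other 8 were Bmp4, Bmp6, Bmpr1a, Ghr, Inhba, Osm, Tnfrsf13b and Tnfsf13b, and their adjusted p without the mouse that mattered most ranged up to 0.0996.

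Among the TNF receptors, Tnfrsf1a and Tnfrsf12a showed the largest differences, followed by Ltbr and Tnfrsf1b. Of 13 receptors 7 rose and 0 fell, with a median of 0.18 over the group. Tnfrsf1a (ENSMUSG00000030341, chr6:125349362-125362484, GRCm38) encodes TNF receptor 1, the widely expressed, death domain-containing receptor for TNF. Its values ran from 5.69 to 6.22 with a median of 5.90 in NT mice and from 6.77 to 7.58 with a median of 7.35 in SOD1-G37R mice. The lowest SOD1-G37R value was that of male 4, and it still exceeded the highest NT value. The means were 5.92 ± 0.14 and 7.29 ± 0.25 (SD, n = 10 each), and the difference was 1.37 (SE 0.09, adjusted p = 3.12e-11). It was 1.45 within experiment 1 and 1.26 within experiment 2, and 1.43 in females.

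Tnfrsf1b (ENSMUSG00000028599, chr4:145213463-145246870) encodes TNF receptor 2, which lacks a death domain and is found mainly on immune and glial cells. It ranged from 2.93 to 3.52 in NT and from 3.48 to 4.23 in SOD1-G37R mice, so that the groups met at their edges. Its difference was 0.68 (SE 0.10, adjusted p = 2.25e-05), with 0.86 in experiment 1 and 0.41, below the threshold, in experiment 2. Tnfrsf12a (ENSMUSG00000023905, chr17:23675445-23677468), the receptor for the cytokine TWEAK, is known to be induced in injured tissue. NT mice had values of 6.28 to 6.75 with a median of 6.42, and SOD1-G37R mice of 6.68 to 7.92 with a median of 7.66. A single SOD1-G37R mouse, male 4 at 6.68, fell within the NT range. The difference was 1.09 (SE 0.10, adjusted p = 2.45e-08), and it was 1.31 in experiment 1 and 0.75 in experiment 2.

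Ltbr (ENSMUSG00000030339, chr6:125306571-125313885), the lymphotoxin beta receptor and a near neighbour of Tnfrsf1a on the chromosome, ranged from 5.40 to 6.26 in NT and from 6.25 to 6.89 in SOD1-G37R mice, with the lowest SOD1-G37R mouse just under the highest NT mouse. It rose by 0.79 (SE 0.10, adjusted p = 2.89e-06). Tnfrsf19, a receptor found in the nervous system, rose by 0.48 (SE 0.11, adjusted p = 0.00173) with overlapping groups. Its call was lost in experiment 2 alone and in males alone. Tnfrsf11a (RANK) and Tnfrsf13b (TACI, a receptor of B cell survival factors) rose by 0.26 and 0.18, both at levels below 2, and the call for Tnfrsf13b was lost without SOD1-G37R female 3 (adjusted p = 0.0506). The 6 receptors without a call included Tnfrsf21, which averaged 6.37 ± 0.13 in NT mice against 6.35 ± 0.13 in SOD1-G37R mice (n = 10 each), Fas, Cd40 and Relt. Relt had a difference of -0.22 (adjusted p = 0.0737), and in experiment 2 its 4 SOD1-G37R mice all lay below the 4 NT mice. Such a separation held for 1 of the 82 members, against 3.07% of all genes.

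Of 7 TNF ligands 4 rose and 0 fell, with a median difference of 0.19 and no difference above 0.44. Tnfsf12 (ENSMUSG00000097328, chr11:69686250-69695849) encodes TWEAK, the ligand of the receptor Tnfrsf12a. It ranged from 5.66 to 6.02 with a median of 5.86 in NT and from 5.97 to 6.59 with a median of 6.32 in SOD1-G37R mice, and it rose by 0.44 (SE 0.08, adjusted p = 0.000224). In GENCODE M21 it overlaps the read-through gene Tnfsfm13 on the same strand, so some of its reads cannot be assigned with certainty. Tnfsf9 (4-1BB ligand, a costimulator of T cells) rose by 0.35 from a level of 1.57 ± 0.09. Tnfsf11 (RANK ligand) rose by 0.22 and Tnfsf13b (BAFF, a B cell survival factor) by 0.19. Both calls were lost with the median of each mouse set equal, and that of Tnfsf13b also without any 1 of 11 mice (adjusted p up to 0.0733). Cd70, Eda and Ltb were not called, with differences of 0.09, 0.12 and 0.03.

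The promoters of the members, called or not, were next searched for runs of letters. The sequences are from RefSeq (GRCm38.p6), read from 250 bases before to 50 bases after each start that RefSeq gives for a gene, and 62 of the 82 members had an entry. These starts can differ from the gene bounds of GENCODE: the window shown for Tnfrsf1a lies inside the GENCODE gene, and that of Tnfrsf19 lies upstream of it. The motifs searched on both strands were TTCNNNGAA (GAS, the element bound by STAT proteins after interferon), 2 runs of GAAA parted by any 2 bases (ISRE, bound by interferon regulatory factors), GAGGAAGT (an element of the myeloid factor PU.1) and GGG and TTTCC parted by any 2 bases (kappa B). No match reported here overlaps one of another motif. Of the 62 members with an entry 33 were called, and the numbers of called members below stand beside this share. The GAS letters were found in 10 of 62 members, 5 of them called, and in 9.55% of all genes. The ISRE letters were in 4 members, 3 of them called, and in 3.99% of genes. The PU.1 letters occurred in 2 members, both called, and in 3.69% of genes, and the kappa B letters in 5 members, 0 of them called, and in 1.89% of genes. A match is a run of letters and not a site of binding. The GAS letters also lay in Fas, Ifnar1, Il17d, Ltb and Prlr, which were not called, and in Csf2rb2, which was called. The ISRE letters also lay in Il1rap and Tnfsf13b, which were called, and in Inhbb, which was not. The windows of these matches are not shown. The windows below are shown because they belong to called receptors of the TNF and interferon systems and to both members with the PU.1 letters, with the motif in capitals, 5′ to 3′ on the strand of the gene.
Tnfrsf1a GAS, chr6:125349473-125349495, plus strand: gcttccTTCCGTGAAattgacaa
Tnfrsf1b GAS, chr4:145247035-145247059, minus strand: cgcattcaTTCCCGGAAgagatgct
Tnfrsf1b ISRE, chr4:145246863-145246888, minus strand: cctgagggTTTCGCTTTCagtcacca
Ifnar2 GAS, chr16:91372561-91372585, plus strand: ccaaggccTTCCTGGAAgaagagag
Tnfrsf19 GAS, chr14:61046841-61046865, minus strand: ggcaggtgTTCGGAGAAacggccta
Csf2rb2 PU.1, chr15:78305679-78305702, minus strand: cactggcaACTTCCTCaatctgct
Pf4 PU.1, chr5:90772417-90772440, plus strand: tgcagagcACTTCCTCatcctgta
The ISRE of Tnfrsf1b and both PU.1 runs stand in the reverse orientation to the gene. Tnfrsf1b is the only one of the 62 members that held both the GAS and the ISRE letters.

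The set holds 1 ligand and 3 receptor chains of the IL-1 family, and all were called. Il18, another ligand of the family, was among the genes left out by symbol. Il33 (ENSMUSG00000024810, chr19:29925114-29960718) encodes an alarmin stored in the nuclei of glial cells in the cord and released on damage. It ranged from 6.75 to 7.34 with a median of 7.04 in NT and from 6.92 to 7.80 with a median of 7.46 in SOD1-G37R mice, where male 4 was again the lowest. It rose by 0.45 (SE 0.09, adjusted p = 0.000523), with 0.56 in experiment 1 and 0.28, below the threshold, in experiment 2. All 3 receptor chains of the family rose. Il1r1 (ENSMUSG00000026072, chr1:40225080-40317257), the signalling receptor for IL-1, ran from 2.62 to 3.08 in NT and from 3.09 to 3.94 in SOD1-G37R mice. The gap between the groups was narrow, and the difference was 0.75 (SE 0.10, adjusted p = 3.47e-06). Il1rap, the accessory chain that IL-1, IL-33 and IL-36 receptors share, rose by 0.31 (SE 0.08, adjusted p = 0.00797), and Il1rl2, the IL-36 receptor, rose by 0.28 from a level of 0.62 ± 0.04. Neither was called in experiment 2 alone, nor was Il1rap in males alone or Il1rl2 in females alone.

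Among the interferon and IL-10 receptors 2 of 6 rose, and these were single chains of 2 receptors. Ifngr1 (ENSMUSG00000020009, chr10:19591949-19610229), the chain that binds interferon gamma, ranged from 4.60 to 4.94 with a median of 4.71 in NT mice. SOD1-G37R mice ranged from 5.25 to 5.85 with a median of 5.45, and the groups did not overlap. It rose by 0.76 (SE 0.09, adjusted p = 2.74e-07). Its partner Ifngr2 averaged 2.61 ± 0.20 in NT mice against 2.62 ± 0.30 in SOD1-G37R mice (n = 10 each), a difference of 0.01 with a 95% interval from -0.21 to 0.24. Ifnar2 (ENSMUSG00000022971, chr16:91372783-91405589), a chain of the type I interferon receptor, ranged from 5.21 to 5.82 in NT and from 6.04 to 6.68 in SOD1-G37R mice. It rose by 0.76 (SE 0.10, adjusted p = 2e-06), and it shares its locus with the same-strand gene Gm21970. The partner chain Ifnar1 had a difference of 0.15 (95% interval -0.02 to 0.32, adjusted p = 0.185). Il10ra, the IL-10 receptor chain, averaged 2.33 ± 0.23 in NT mice against 2.49 ± 0.13 in SOD1-G37R mice and was not called (adjusted p = 0.178).

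In the IL-17 family 2 of 5 genes rose. Il17ra (ENSMUSG00000002897, chr6:120463247-120487559), the chain common to most IL-17 receptors, ranged from 4.83 to 5.58 in NT and from 5.31 to 5.87 in SOD1-G37R mice and rose by 0.49 (SE 0.09, adjusted p = 0.000233). Il17b, a ligand of the family, rose by 0.35 from a level of 1.36 ± 0.08. The partner chain Il17rc was at 4.41 ± 0.37 and 4.34 ± 0.24, with a difference of -0.08 (95% interval -0.34 to 0.19), and the ligand Il17d had a difference of -0.11 (adjusted p = 0.382).

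The largest group took in the haematopoietin receptors, their ligands and the remaining members, and 11 of its 25 genes rose while 0 fell. Its strongest differences were in receptors for growth factors of myeloid cells. Csf2ra (ENSMUSG00000059326, chr19:61223957-61228429), the chain that binds GM-CSF, ran from 4.71 to 5.72 with a median of 5.24 in NT mice and from 6.49 to 7.30 with a median of 6.98 in SOD1-G37R mice. The lowest SOD1-G37R value was thus well above the highest NT value. The means of 5.20 ± 0.33 and 6.88 ± 0.31 (SD, n = 10 each) differed by 1.68 (SE 0.13, adjusted p = 7.52e-10), the largest difference of the 82 members. It was 1.83 in experiment 1 and 1.45 in experiment 2.

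Crlf2 (ENSMUSG00000033467, chr5:109554709-109558993), the TSLP receptor chain, is related to the gamma chain of interleukin receptors. It ranged from 5.94 to 6.52 in NT and from 6.96 to 7.77 in SOD1-G37R mice, again without overlap, and rose by 1.26 (SE 0.10, adjusted p = 1.03e-09). Csf3r, the G-CSF receptor of neutrophils and other myeloid cells, rose by 0.93 (SE 0.10, adjusted p = 1.68e-07). Its groups met through 2 mice, NT female 2 at 3.71 and SOD1-G37R male 4 at 3.54, and no marker of the neutrophil list was measured. Il3ra, the chain that binds IL-3, ranged from 2.87 to 3.93 in NT and from 4.04 to 4.39 in SOD1-G37R mice and rose by 0.88 (SE 0.10, adjusted p = 2.69e-07).

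Csf2rb (ENSMUSG00000071713, chr15:78325752-78353847) encodes the common beta chain that GM-CSF, IL-3 and IL-5 receptors share. It ranged from 1.88 to 2.23 in NT and from 2.44 to 3.11 in SOD1-G37R mice and rose by 0.68 (SE 0.09, adjusted p = 2.33e-06). Its neighbour Csf2rb2, a copy specific to mouse IL-3, rose by 0.52 (SE 0.09, adjusted p = 0.000113). The copies are closely alike in sequence, and how reads were divided between them is uncertain. Il21r (IL-21 receptor) rose by 0.59, Ebi3 (a subunit of IL-27) by 0.38 and Ctf1 (cardiotrophin) by 0.38. Ghr (growth hormone receptor) and Osm (oncostatin M) rose by 0.22 and 0.13, and each call was lost without any 1 of 14 mice. The other 14 genes, among them Il6ra, Il15, Il2, Lif, Epor and Prlr, were not called, with differences from -0.19 for Prlr to 0.23 for Il11ra1. The mean of the microglial markers was also above its NT range in each SOD1-G37R mouse, as given above, and its part in these receptors was not tested.

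BMP, GDF and activin genes moved in both directions. Of 11 ligands 4 rose and 1 fell, with a median of -0.01. Gdf15 (ENSMUSG00000038508, chr8:70629393-70632456), a hormone-like protein released by stressed cells, ran from 1.76 to 1.97 in NT and from 2.30 to 2.69 in SOD1-G37R mice. With a difference of 0.65 (SE 0.06, adjusted p = 4.51e-09) and no overlap, it was the ligand with the largest change in the set. Bmp6, Inhba (a subunit of activin A) and Bmp4 rose by 0.29, 0.28 and 0.24. These calls were weak: they were lost without any 1 of 5, 10 and 9 mice, with adjusted p up to 0.0631, 0.0774 and 0.0685. Bmp2 fell by 0.21 (SE 0.07, adjusted p = 0.0199), from 2.17 ± 0.16 in NT to 1.95 ± 0.10 in SOD1-G37R mice. The call of Bmp2 held in neither experiment alone and in neither sex alone.

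Of the 8 receptors of this branch 2 rose and 2 fell. Acvr1 rose by 0.28 (SE 0.07, adjusted p = 0.00481) and Bmpr1a by 0.29 (SE 0.10, adjusted p = 0.0383), both type I receptors, and the latter call was lost without any 1 of 11 mice. Acvr2b, a type II activin receptor, fell by 0.40 (SE 0.12, adjusted p = 0.02), and Amhr2, the receptor for anti-Müllerian hormone, fell by 0.36 (SE 0.10, adjusted p = 0.00994). Both had overlapping groups. Neither of them, and neither of the 2 receptors that rose, was called in experiment 2 or among males. With the median of each mouse set equal, 28 members rose and 6 fell, and Acvr1b, Prlr and Relt joined the 3 that fell. Over all genes the same centring changed the split from 2290 higher and 1830 lower to 1645 and 2945, with a median shift of -0.07.

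Of the remaining chemokine genes, Pf4 (platelet factor 4, made by platelets and some macrophages) ranged from 1.28 to 1.42 in NT and from 1.47 to 2.03 in SOD1-G37R mice and rose by 0.34 (SE 0.07, adjusted p = 0.000438). The receptor Ccr10 had a difference of 0.01 and was not called.

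The 42 members without a call had differences from -0.23 for Acvr1b to 0.24 for Bmpr1b. At the higher levels, where the table spreads values more, these included the activin and BMP receptors Acvrl1 (5.31 ± 0.29 in NT against 5.35 ± 0.17 in SOD1-G37R mice) and Acvr1b (6.21 ± 0.21 against 5.97 ± 0.21, adjusted p = 0.0675). Gdf11, a ligand of activin type receptors, had levels of 3.06 ± 0.19 and 3.22 ± 0.18 and a difference of 0.16 (adjusted p = 0.173). Other uncalled ligands of this branch, Bmp5, Bmp7, Gdf9 and Inha, had differences between -0.06 and -0.01. Of the interleukin genes, Il16 had a difference of 0.14, Il15ra (IL-15 receptor) of -0.03 and Il12rb1 (a chain of the IL-12 and IL-23 receptors) of -0.08. Several ligands and receptors were close to the bottom of the scale, among them Il11 (0.22 ± 0.05 in NT mice), Il17rb (0.24 ± 0.09), Ifnlr1 (0.14 ± 0.07), Cd40 (0.32 ± 0.10) and Osm (0.00 ± 0.04, called). At such levels a lack of a call says little, since few genes of any kind were called there. Acvr2a, Clcf1 and Tnfrsf13c, at 1.42, 1.23 and 1.09 in NT mice, were not called either.

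**Figure D2:**
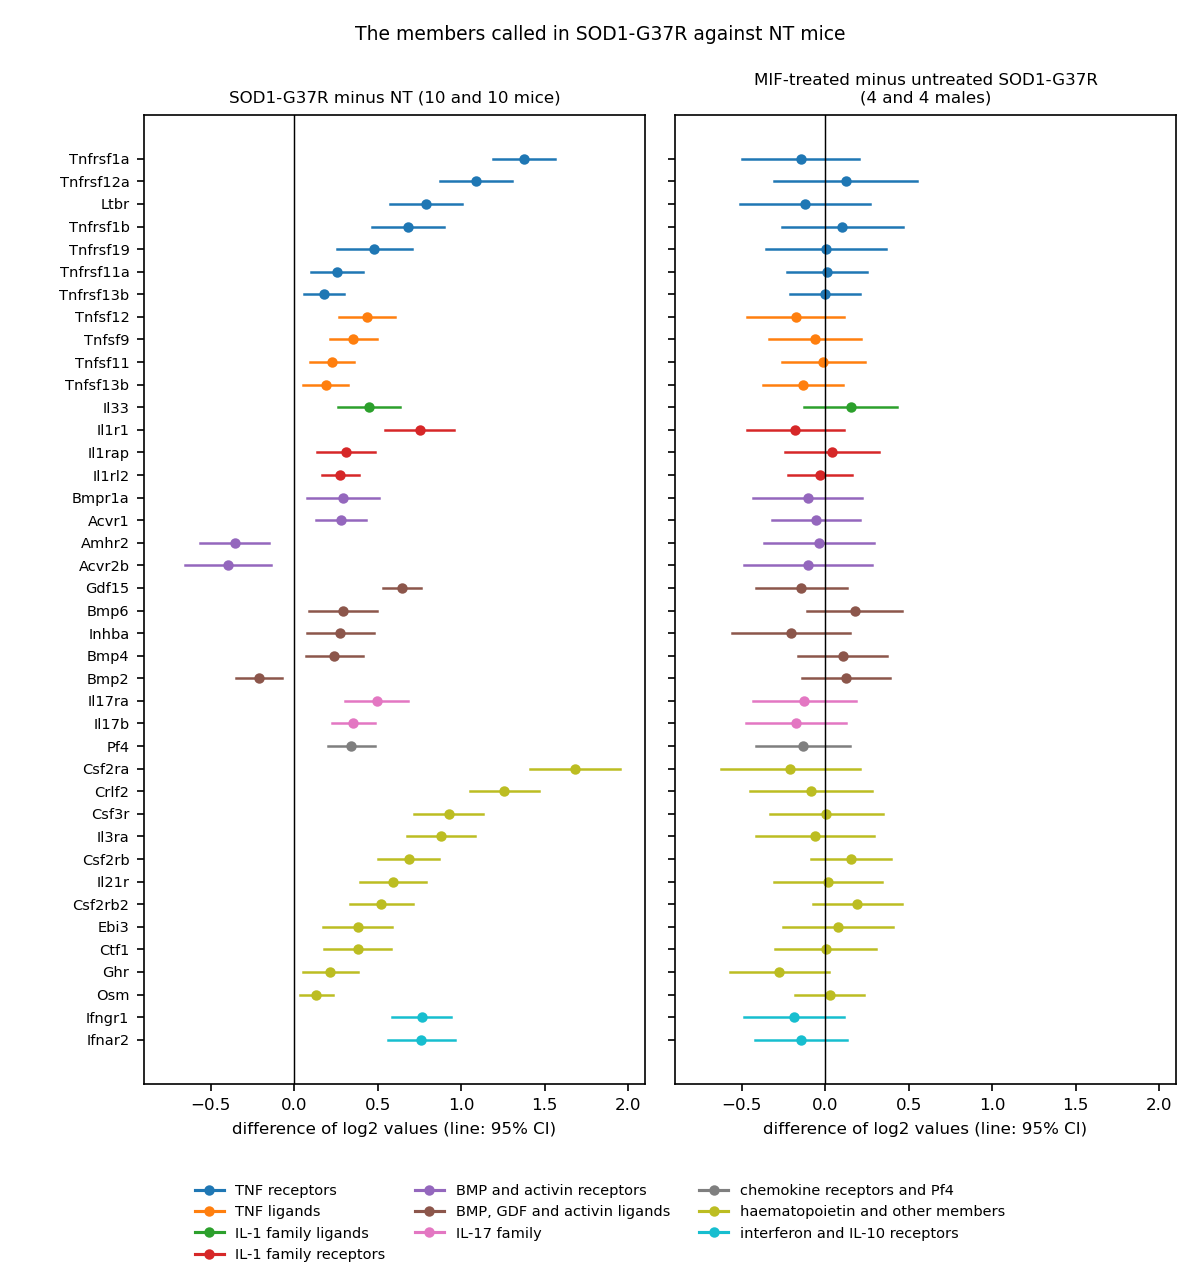
Difference of log2 values (point) with its 95% confidence interval (line) for the 40 members called in SOD1-G37R against NT mice, by role, in that comparison (left) and in MIF-treated against untreated SOD1-G37R males (right). On the left the 37 that rose lie to the right of 0, up to 1.68 for Csf2ra, and on the right each interval includes 0.

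**Figure D3:**
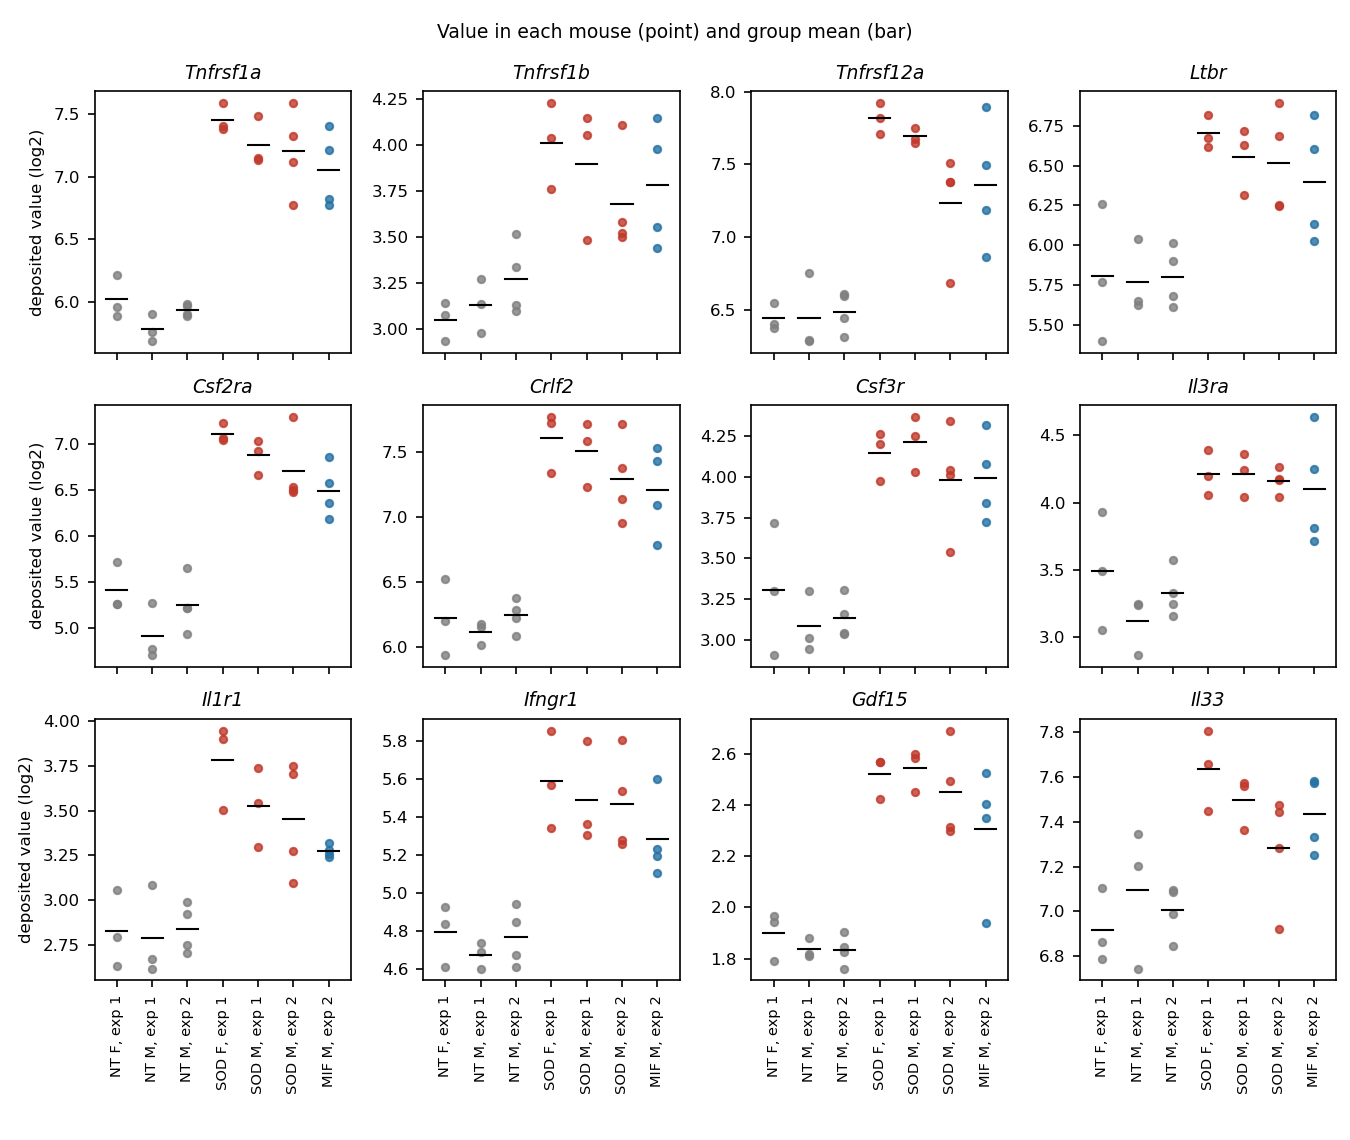
Deposited log2 value of 12 members in each of the 24 mice (points) with the mean of each set (bars), split by genotype, treatment, sex (F, M) and experiment (exp 1, exp 2), with NT in grey, SOD1-G37R in red and MIF-treated SOD1-G37R in blue. The axes do not start at 0. In the panel of Tnfrsf1a the 10 SOD1-G37R values lie above the highest NT value of 6.22.

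Receptor chains that work as pairs were then compared within each mouse. Ifngr1, Ifnar2 and Il17ra had risen while their partners were not called, and in the other pairs both chains had risen. The 6 pairs were chosen after the results above were seen, in the same mice, so their differences are a description and no test is given. Ifngr1 minus Ifngr2 was 2.14 ± 0.25 in NT and 2.89 ± 0.31 in SOD1-G37R mice, 0.75 apart, and the genotypes did not overlap. Ifnar2 minus Ifnar1 was 0.61 higher in SOD1-G37R than in NT mice, and Il17ra minus Il17rc was 0.57 higher, with overlap in both.

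For the GM-CSF receptor, Csf2ra minus Csf2rb was 3.11 ± 0.32 in NT and 4.10 ± 0.29 in SOD1-G37R mice, 0.99 apart without overlap. Il1r1 minus Il1rap was 0.44 higher and Il3ra minus Csf2rb 0.20 higher in SOD1-G37R than in NT mice, both with overlap. Within experiments 1 and 2 the value was 0.71 and 0.80 for Ifngr1 minus Ifngr2. For Csf2ra minus Csf2rb it was 0.99 in experiment 2 and nearly the same in experiment 1. It was less even for Ifnar2 minus Ifnar1, at 0.78 and 0.35, and for Il3ra minus Csf2rb, at 0.07 and 0.38. The size of differences between genotypes varies along the scale of the table, as given above, and the part of this in the chain differences was not tested.

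**Figure D4:**
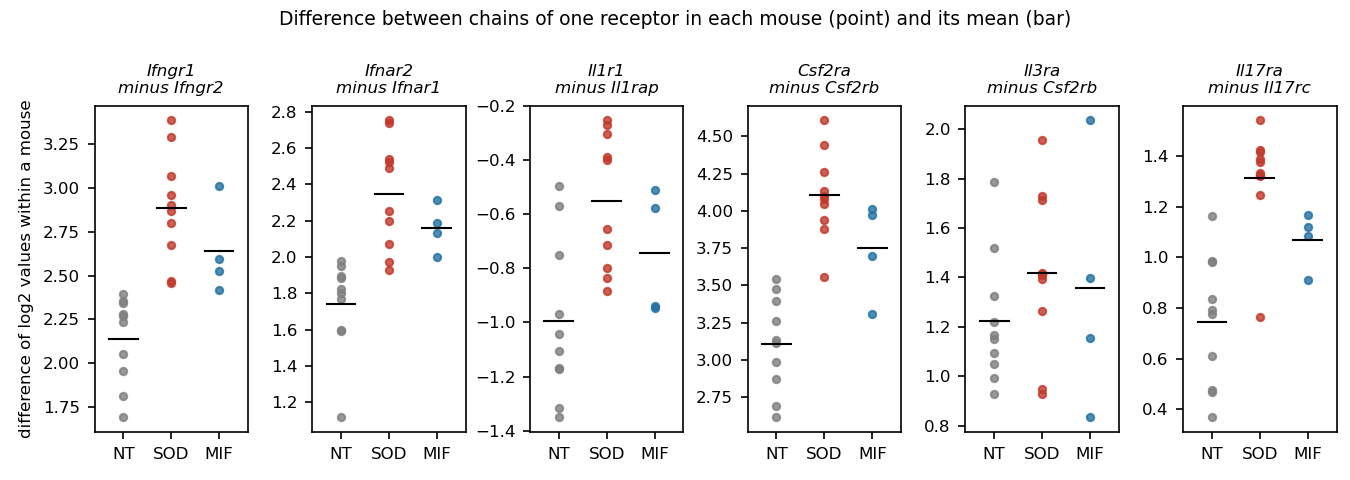
Difference of log2 values between chains of 1 receptor within each mouse (points) with the group mean (bars), for 6 pairs, in 10 NT, 10 SOD1-G37R and 4 MIF-treated SOD1-G37R mice. The axes do not start at 0. Ifngr1 minus Ifngr2 averages 2.14 in NT and 2.89 in SOD1-G37R mice, and the difference of the genotypes is smallest for Il3ra minus Csf2rb at 0.20.

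The effect of genotype was compared between the sexes and between the experiments. Among the 12 mice of experiment 1, 0 of the 82 members and 0.0% of all genes were called for a difference between males and females, and 4 members had an unadjusted p under 0.05, against 4.34% of all genes. Males minus females, the genotype effect differed by 0.77 for Il17rc (95% interval 0.27 to 1.27), by -0.44 for Tnfsf12, by -0.40 for Ghr and by 0.32 for Pf4. Among the 14 untreated males, 0 members and 0.0% of all genes differed between the experiments, and 1 member, Csf2rb, had an unadjusted p under 0.05 (-0.54 in experiment 2 against experiment 1, 95% interval -0.90 to -0.18), against 3.57% of all genes. For Tnfrsf1a the genotype effect differed by 0.04 between the sexes (95% interval -0.36 to 0.43) and by -0.21 between the experiments (-0.66 to 0.25). With 3 or 4 mice a group these intervals are wide. Experiment 2 alone called 11 members higher: Csf2ra, Crlf2, Tnfrsf1a, Tnfrsf12a, Ltbr, Gdf15, Il1r1, Csf3r, Il3ra, Ifngr1 and Ifnar2, while 3.18% of all genes were called higher there. In females alone 22 members rose and 2 fell, against 8.32% and 7.03% of all genes. In males alone 25 rose and 0 fell, against 9.7% and 6.04% of all genes.

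To determine whether these genes differed with treatment, the 4 SOD1-G37R males given AAV-PHP.eB-MIF were compared with the 4 untreated SOD1-G37R males of experiment 2, in 1 limma fit with the 4 NT males. None of the 82 members was called (0 of 82). Over all genes 1 was called (0.00644%), Cd74, a receptor of MIF, which was higher by 1.29 in treated mice. This call was lost, with 0 genes called, without untreated male 1, 2 or 4 or treated male 1 and with the replicate block. At an unadjusted p under 0.05 there were 2 members, against 3.29% of all genes. The members' differences ran from -0.28 to 0.34 with a median of -0.01.

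Tnfrsf1a stood at 7.40, 6.82, 7.21 and 6.77 in the 4 treated mice and at 7.33, 7.12, 7.58 and 6.77 in the 4 untreated ones. These ranges coincide almost fully, and the difference was -0.15 (95% interval -0.50 to 0.20). Csf2ra was at 6.58, 6.19, 6.86 and 6.36 in treated and at 6.54, 6.50, 7.30 and 6.49 in untreated mice, a difference of -0.21 (-0.63 to 0.21). Crlf2 gave 7.43, 6.79, 7.53 and 7.10 against 7.38, 7.14, 7.71 and 6.96, a difference of -0.09 (-0.45 to 0.28), and without treated male 2 or untreated male 3 its sign turned, to 0.06 and 0.05. Tnfrsf12a, the receptor whose untreated male 4 stood apart, gave 7.89, 6.86, 7.18 and 7.49 in treated and 7.51, 7.38, 7.38 and 6.68 in untreated mice, a difference of 0.12 (-0.31 to 0.55). The treated mice thus spread over a wider range than the untreated ones. Csf3r ran from 3.72 to 4.31 in treated mice and from 3.54 to 4.34 in untreated ones, a difference of 0.01 (-0.33 to 0.35). Il1r1 lay between 3.24 and 3.32 in treated mice and between 3.09 and 3.75 in untreated ones, a difference of -0.18 (-0.47 to 0.11). These intervals reach well above and below 0 for most members, so the members were not shown to be alike in treated and untreated mice.

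The members with an unadjusted p under 0.05 were Inhbb, a subunit of activin B, which was 0.34 higher in treated mice (95% interval 0.02 to 0.67), and Tnfrsf11b, the decoy receptor osteoprotegerin, which was lower (difference -0.27, 95% interval -0.50 to -0.03). Neither was called by limma over all genes. In 1 member, the IL-13 receptor chain Il13ra1, all treated mice lay above all untreated ones (0.96% of all genes), at 1.67 ± 0.05 against 1.51 ± 0.09 (SD, n = 4 each). In 1 member, the erythropoietin receptor Epor, all lay below (0.837% of all genes), at 1.79 ± 0.09 against 2.03 ± 0.13. Epor was also below all 4 NT males of experiment 2, which held for 1 of the 82 members, against 3.17% of all genes.

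Against the 4 NT males the treated mice showed 8 members called higher and 0 lower, which is 9.76% of the members, against 3.11% of all genes. Called were Csf2ra (1.24), Tnfrsf1a (1.11), Crlf2 (0.97), Tnfrsf12a (0.87), Csf3r (0.85), Il3ra (0.77), Csf2rb (0.61) and Csf2rb2 (0.51). The count ranged from 5 to 11 when 1 of the 12 males was left out, with 5 without NT male 1. Csf2rb2, Tnfrsf12a and Il3ra lost their call without any 1 of 6, 5 and 2 mice, and the other 5 kept it each time. In 20 members all treated mice lay above all 4 NT males (6.48% of all genes).

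Members that rose in untreated SOD1-G37R mice but fell short of the threshold in this smaller comparison had values such as 0.51 for Ifngr1 (95% interval 0.21 to 0.81), 0.43 for Ifnar2 (0.15 to 0.71), 0.43 for Il1r1 (0.14 to 0.72) and 0.47 for Gdf15 (0.20 to 0.75). For Gdf15 a single treated mouse, male 2 at 1.94, lay close to the NT range of 1.76 to 1.90 in experiment 2, and the other 3 were at 2.35 to 2.53. Il10ra, not called in the comparison of the genotypes, had a difference of 0.38 here (0.14 to 0.61, adjusted p = 0.0885). In the untreated SOD1-G37R males of experiment 2 it was 0.31 above the same NT males. Treated minus untreated males, its difference was 0.07 (95% interval -0.17 to 0.30). The comparisons share mice: the treated mice enter the last 2, and the NT and untreated SOD1-G37R males of experiment 2 also enter the comparison of the genotypes.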

How the data were processed

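RNA of the lumbar cord of 24 mice was sequenced by MARS-seq. The submitters' processing notes name Trim Galore 0.4.5, cutadapt 1.15, STAR 2.5.2a, RSEM 1.2.28 and the build GRCm38, and per the paper's methods the authors removed the batch with SVA/ComBat. The deposited log2 values were used as deposited by the authors. Their transform and its base are not stated and base 2 was assumed. They are not counts. Reads per sample are given in the paper as an average only, and no strand setting of the counting is given. Columns of the authors' own fold changes and p-values were not used, and 0 value columns per mouse were left unused.

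All 15524 genes were fitted with limma 3.58.1 (R 4.3.3) without a filter or trend, with genotype and experiment as terms for the 20 untreated mice, and as 3 groups for the 12 males of experiment 2. Genes were called at an adjusted p under 0.05. Levels are means over all mice of a group. Genes were placed with GENCODE M21. Summaries and figures used Python 3.11.15 (numpy 2.4.6, pandas 2.3.3, scipy 1.17.1, matplotlib 3.10.9), and the fitting code was tested on simulated data. No source says which mice shared a litter. The p-values measure the spread between these mice after the authors' batch removal, and the effect of that removal on them was not tested.

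Members, role groups, motifs and lists were chosen with earlier results of these data known. Named members were Tnfrsf1a, up to 5 of smallest adjusted p per role and direction, and a fixed list of 10 cytokine genes. Others were named after their values were seen. Alternatives changed the scaling, filter, trend, covariates, mice, thresholds and the replicate block. The protein sequences planned for the TNF receptors were not used here. Values of some single members are not reported here.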

Additional observations from a re-analysis of the deposited data

Results flagged for a closer look

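A mouse was singled out when its gap to the nearest mouse of its group was large for the range of the group (Dixon's criterion at 95%). This was examined in 99 groups of the 33 members named by rule and picked out 4 values, where chance alone picks out about 1 group in 20. SOD1-G37R male 4 of experiment 2 was the lowest of 10 for Tnfrsf12a at 6.68, with the next mouse at 7.38, and for Csf3r at 3.538, with the next at 3.97. SOD1-G37R male 2 of experiment 2 was the highest of 10 for Acvr2b at 3.697, with the next at 3.27. NT female 2 was the highest of 10 for Csf3r at 3.715, with the next at 3.31. Without any 1 of the 20 mice, the differences between genotypes ranged from 1.05 to 1.18 for Tnfrsf12a, from 0.89 to 0.98 for Csf3r and from -0.47 to -0.32 for Acvr2b, and all 3 stayed called.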

How the results depend on the processing

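Of the 37 members that rose in SOD1-G37R mice, the count was 11 in experiment 2 alone, 22 in females alone and 15 with a difference of at least 0.5 required. With the other alternatives it lay between 25 and 37, and leaving out 1 mouse gave 31 to 37. The 3 that fell became 6 with each mouse centred on its median, 5 with quantile normalization, 1 at an adjusted p under 0.01 and 0 in experiment 2 alone, in males alone or with a difference of at least 0.5, and leaving out 1 mouse gave 3 to 4. Against NT males, the 8 members higher in treated mice became 16 with all 18 males, 19 with all 24 mice and 5 at an adjusted p under 0.01, leaving out 1 mouse gave 5 to 11 with 0 lower throughout, and with all 24 mice 1 was lower, Epor. Treated against untreated SOD1-G37R mice gave 0 called members under every alternative run, and the sign of Crlf2 turned from -0.09 to 0.056 without treated male 2 and to 0.054 without untreated male 3, with a range of -0.199 to 0.056 over the mice left out. The cause of these shifts was not tested beyond the fewer mice of each subset. Replicate numbers did not pair the mice by the criterion of every correlation over 0.1 (same-numbered NT and untreated SOD1-G37R mice from -0.17 to 0.26, untreated and treated SOD1-G37R mice 0.37, 0.11, 0.25 and 0.06, NT and treated mice from -0.26 to 0.07), and with the replicate block the counts were 34 and 3 for the genotypes, 0 and 0 for treated against untreated and 10 and 0 for treated against NT mice. Values low in the table are compressed, and the depth of each mouse is unknown. A small difference there was therefore not separable from no change.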
